A study of Mus musculus with 32 samples.

Results

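Fatty acid desaturases and elongases were followed as mRNA in mouse liver across genotype, diet and feeding state. The 9 genes were taken by name from 20076 genes counted: the stearoyl-CoA desaturases Scd1 and Scd2, the front-end desaturases Fads1, Fads2 and Fads6, and the elongases Elovl1, Elovl2, Elovl3 and Elovl5. All 9 passed the filter on low counts, as did 11566 genes in all. The study set out to learn what the liver contributes when medium-chain acyl-CoA dehydrogenase (MCAD), an enzyme of mitochondrial fatty acid oxidation encoded by Acadm, is missing. Livers came from male mice on a C57BL/6J background that carried a knockout of Acadm (KO) and from their wild-type littermates (WT). Each genotype was given a low-fat (LF) or a high-fat (HF) semisynthetic diet for 6 weeks and was killed fed or after a fast of 16 h, which gave 8 groups of 4 mice. The knockout affects the whole animal, and the age that the labels give, without a unit, spanned 7.5 to 16 over mice and overlapped between all groups. Of the 32 mice, 30 were used. The libraries left out were replicate 4 of the fasted KO mice on HF, in which heart muscle markers summed to 36104 CPM (counts scaled to library size) and hepatocyte markers to 1024 CPM, and replicate 2 of the fed WT mice on LF, with 338 CPM of cholangiocyte and 1369 CPM of stellate cell markers (at most 96.8 and 679 CPM in the others), so that those groups held 3 mice each.

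Long fatty acids are built in the endoplasmic reticulum. Elongases (ELOVL) catalyse the first and rate-limiting step of a cycle that adds a pair of carbons to an acyl-CoA, and desaturases place double bonds with electrons handed over by cytochrome b5. SCD1, the main liver form, and SCD2 turn stearoyl-CoA and palmitoyl-CoA into the monounsaturated oleoyl-CoA and palmitoleoyl-CoA. FADS2 (delta-6) and FADS1 (delta-5) act in turn on the essential polyunsaturated fatty acids, with ELOVL5 and ELOVL2 extending the chain between and after them. ELOVL1 and ELOVL3 lengthen saturated and monounsaturated chains to very long ones, and FADS6 is a family member whose substrate is not settled. In liver, Scd1, Fads1, Fads2 and several elongases are known targets of SREBP-1c, a transcription factor that is active in the fed state under insulin, and Scd1 is also induced by carbohydrate through ChREBP.

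The genes sit close together in part. According to GENCODE vM21 (GRCm38), 5 of the 9 lie on chromosome 19. Scd2 (44293674 to 44306864, plus strand) and Scd1 (44394455 to 44407879, minus strand) are separated by 87.6 kb, and Fads2 (10062765 to 10101746, minus strand) and Fads1 (10182888 to 10196877, plus strand) by 81.1 kb. Elovl3 spans 46131897 to 46135694 on the plus strand of the same chromosome. The others are on chromosomes 11 (Fads6, 115279622 to 115297663, minus strand), 4 (Elovl1, 118428093 to 118432953, plus strand), 13 (Elovl2, 41182381 to 41220405, minus strand) and 9 (Elovl5, 77917364 to 77984519, plus strand). Scd4 lies between Scd2 and Scd1, Scd3 on the other side of Scd2, and Fads3 beside Fads2. They resemble these genes in coding sequence, and the sharing of reads among such copies was not tested.

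The promoter table of RefSeq (GRCm38.p6) held windows for 5 of the 9 genes. The windows of Elovl1, Elovl2 and Elovl5 are shown as those of elongases on which results below turn: Elovl1 and Elovl2 were called lower on fasting, and the levels of Elovl2 and Elovl5 were correlated over mice. Each is the stretch before the start site that lies in no annotated exon, written 5′ to 3′ on the gene's strand. Capitals mark matches to the 6 motifs searched on both strands, which are the sterol regulatory element TCACNCCAC, the CCAAT box, the E-box CACGTG, the GC box GGGCGG and the nuclear receptor elements DR1 and DR4, which are direct repeats of the half-site AGGTCA with 1 or 4 bases between them.
Elovl1 (chr4:118427843-118428092, plus strand): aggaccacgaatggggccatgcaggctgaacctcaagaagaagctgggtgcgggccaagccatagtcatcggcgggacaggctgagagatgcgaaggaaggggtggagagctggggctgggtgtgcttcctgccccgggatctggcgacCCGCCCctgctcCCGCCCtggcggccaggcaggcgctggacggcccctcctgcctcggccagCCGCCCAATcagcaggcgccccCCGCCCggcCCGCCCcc
Elovl2 (chr13:41220406-41220653, minus strand): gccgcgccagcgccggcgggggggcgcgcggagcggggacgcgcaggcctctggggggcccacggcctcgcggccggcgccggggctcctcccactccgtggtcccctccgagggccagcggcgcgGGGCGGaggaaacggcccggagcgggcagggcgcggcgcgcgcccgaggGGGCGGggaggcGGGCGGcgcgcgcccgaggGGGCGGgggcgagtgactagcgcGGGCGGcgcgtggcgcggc
Elovl5 (chr9:77917115-77917363, plus strand): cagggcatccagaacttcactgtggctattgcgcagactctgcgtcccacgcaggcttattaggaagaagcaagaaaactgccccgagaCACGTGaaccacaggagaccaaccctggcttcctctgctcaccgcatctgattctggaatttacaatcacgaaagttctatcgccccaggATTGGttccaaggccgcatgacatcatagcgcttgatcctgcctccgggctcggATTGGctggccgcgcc

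The Elovl1 window shown holds 5 GC boxes, all on the other strand. The one 39 to 34 bases before the start overlaps a CCAAT box at 35 to 31 bases. Another Elovl1 window (from 118429451), not shown, has GC boxes on the gene's strand, 48 to 43 and 37 to 32 bases before its start. The Elovl2 window shown has 5 GC boxes and a GC content of 87.1%, and another Elovl2 window, not shown, had no match. Elovl5 has no GC box, a GC content of 55.8%, an E-box 161 to 156 bases before the start and 2 CCAAT boxes on the other strand. Over all 7 windows of the 5 genes, each counted over 250 bases before the start, a GC box was found in 5 and a CCAAT box in 2, while 32.7% and 33.8% of the 32851 windows in the table held one. The E-box of Elovl5 was the only one among the 7, with 6.02% of all windows holding it. The sterol regulatory element, DR1 and DR4 letters were found in none of the 7, and in 1.05%, 0.0335% and 0.0152% of all windows. These are matches of letters in a short window.

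Between 2031053 and 4292200 reads were counted on genes per mouse. Levels are given as CPM, the count of a gene relative to the library's total after TMM scaling, and since the libraries hold 1 tag from the 3′ end of a transcript, CPM was not divided by gene length. The targeted gene behaved as labelled, with 26 to 94 counts of Acadm in the 15 KO mice and 566 to 2752 in the 15 WT mice. Hepatocyte markers summed to 52023 to 71688 CPM in fed and 54681 to 84473 CPM in fasted mice (10 of 10 detected). The 8 adipose markers summed to more in fasted mice (27.1 to 258 CPM, median 124) than in fed mice (2.24 to 81.0 CPM, median 12.8), mostly through Cidec and Plin4, while Adipoq reached at most 8.60 CPM and Lep was at 0 in every fasted mouse. The 8 macrophage markers had a median sum of 469 CPM in fed and 345 CPM in fasted mice. Acinar pancreas markers reached 17380.4 CPM in WT HF fasted replicate 2 and 2548 CPM in KO HF fed replicate 1, and adrenal cortex markers 290.1 CPM among the KO LF fasted mice, where replicates 3 and 4 stood out. The part of these markers in the results below was not tested beyond leaving those 4 libraries out. Skeletal muscle markers summed to at most 1472 CPM in fed and 305 CPM in fasted mice (median 0.888 CPM over the 30 mice). No setting was chosen by these muscle markers. WT HF fed replicate 2 stood apart from its group in several of the 9 genes. Several fasting results and the correlations of pairs are given with and without it, while the estimates for diet and genotype include it.

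Levels of the 9 differed widely. Over the 30 mice, Scd1 was the most abundant (5345 ± 3494 CPM, SD, n = 30), followed by Elovl5 (1889.7 ± 623 CPM), Elovl2 (557 ± 132 CPM), Fads1 (411 ± 136 CPM), Elovl3 (322 ± 142 CPM) and Fads6 (120.03 ± 17.5 CPM). Elovl1 (23.3 ± 6.55 CPM), Fads2 (19.2 ± 7.75 CPM) and Scd2 (6.30 ± 3.17 CPM) were low. Behind them stood 774 to 50906 counts of Scd1 per mouse, 23 to 137 of Elovl1, 14 to 108 of Fads2 and 0 to 44 of Scd2, so that counting error weighs most on the last of these. Scd1 made up a median of 65.2% of the summed CPM of the 9 genes in fed mice (14.7 to 77.7%) and 48.5% in fasted mice (31.4 to 75.6%). The summed level had a median of 10853 CPM in fed and 6608 CPM in fasted mice.

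**Figure D1:**
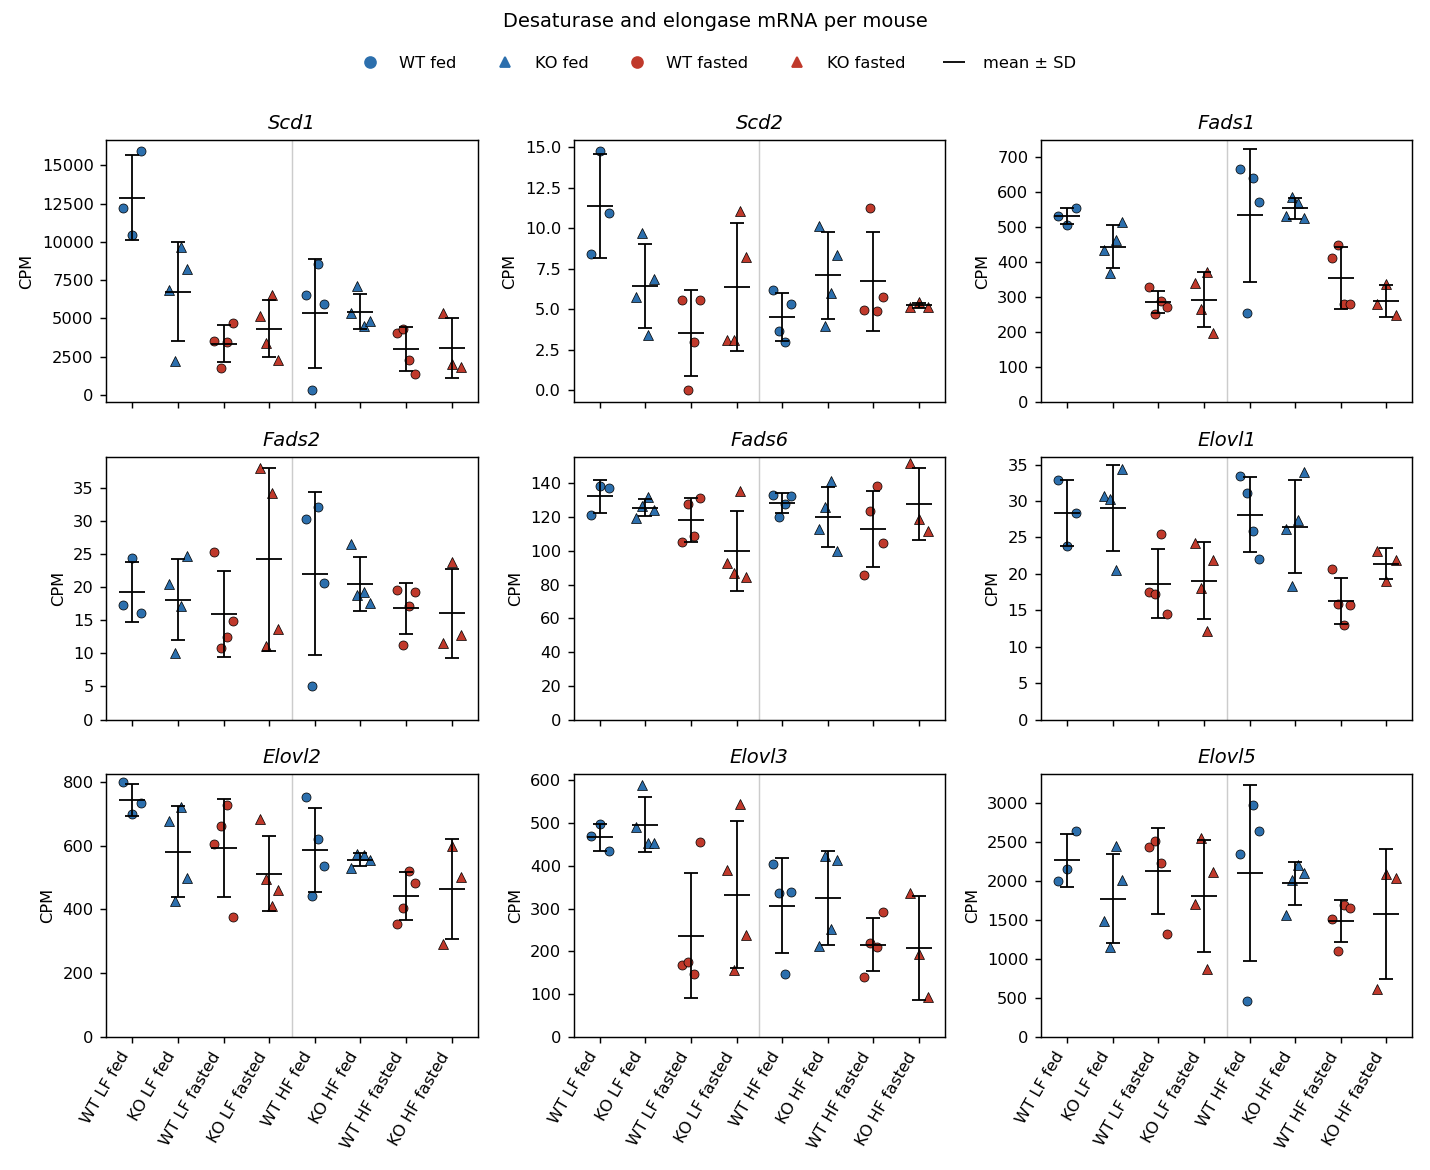
Level of each of the 9 genes in each of the 30 mice, in CPM on linear axes from 0, by group (LF left and HF right of the grey line; circles WT, triangles KO; blue fed, red fasted; bars mean ± SD of 3 or 4 mice). Scd1 is highest in the 3 WT LF fed mice (10468 to 15909 CPM), the group means of Fads1 are lower in fasted than in fed mice on both diets, and WT HF fed replicate 2 has the lowest Scd1 of all (283 CPM).

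The first question was how fasting changed the 9 genes. Averaged over the 4 combinations of genotype and diet, Scd1, Fads1, Elovl1, Elovl2 and Elovl3 were lower in fasted mice by the quasi-likelihood test of edgeR (adjusted p below 0.05), and none was higher. These are 5 of 9, against 9.14% of all genes tested that were called lower. The point estimates of the other 4 were lower too, and the median log2 fold change of the 9 was -0.39, where that of all genes was -0.0022. Scd1 had the largest estimate. As livers were sequenced whole, less RNA per cell and fewer cells that make it cannot be told apart.

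Scd1, which makes oleate and palmitoleate, had 12235, 10468 and 15909 CPM in the WT LF fed mice and 3486, 1722, 3439 and 4706 CPM in the WT LF fasted mice. All fasted mice lay below all fed mice there, as was so for 10.2% of all genes tested. In KO LF mice it had 6819, 2200.4, 9686 and 8254 CPM fed and 5144, 3385, 6530.1 and 2259 CPM fasted, and these groups overlapped through the fed replicate 2. On the HF diet the WT mice had 6527, 283, 8582 and 5909 CPM fed and 4046, 4276, 2252 and 1329 CPM fasted. Apart from the fed mouse at 283 CPM, the fed WT HF mice were all above the fasted ones. KO HF mice had 5369.9, 7089, 4472 and 4840.4 CPM fed and 5317, 1997 and 1834 CPM fasted, with 1 fasted mouse within the fed range. The average log2 fold change on fasting was -1.07 (SE 0.33, 95% interval -1.74 to -0.39, adjusted p = 0.0236), a level 0.478 times that of the fed state. It was -1.16 (adjusted p = 0.00103) without WT HF fed replicate 2. The call was lost without KO HF fasted replicate 2 (-1.01, adjusted p = 0.0518) and without KO HF fasted replicate 3 (-0.999, adjusted p = 0.0520).

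Fads1, the delta-5 desaturase that forms arachidonate and eicosapentaenoate, had the smallest p of the 9. WT LF mice had 532, 506 and 553 CPM fed and 329, 253, 290.2 and 273 CPM fasted, and KO HF mice had 532, 585, 569 and 525 CPM fed and 281, 339 and 248 CPM fasted. Neither pair of groups overlapped, and in KO HF mice 5.2% of all genes were lower without overlap. KO LF mice had 433, 368, 462 and 514 CPM fed and 339.8, 265, 371 and 197 CPM fasted, where 1 fasted mouse lay just above the lowest fed mouse. WT HF mice had 666, 254, 639.98 and 571 CPM fed and 412, 449, 280.5 and 279 CPM fasted, and overlapped only through fed replicate 2. The average log2 fold change was -0.75 (SE 0.11, 95% interval -0.97 to -0.53, adjusted p = 1.46e-06), or 0.594 times the fed level. It stayed between -0.81 and -0.71 when each of the 30 mice was left out in turn, with the call kept in all 30 fits.

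Fads2 encodes the delta-6 desaturase that acts upstream of Fads1, and its values were not lower in every condition. The group means ranged from 18.1 to 22.1 CPM in fed and from 15.9 to 24.2 CPM in fasted mice, and fed and fasted mice overlapped in all 4 conditions. KO LF fasted mice fell into a high pair (37.9 and 34.3 CPM) and a low pair (11.1 and 13.7 CPM), with the fed mice of that condition between 10.1 and 24.7 CPM. The average log2 fold change was -0.16 (95% interval -0.59 to 0.27, adjusted p = 0.676). Fads6 had means of 120.03 to 132 CPM in the fed and 99.9 to 128 CPM in the fasted groups and had the smallest SD relative to its mean. Its log2 fold change was -0.15 (95% interval -0.32 to 0.02, adjusted p = 0.243).

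Scd2, the desaturase form most known from brain, skin and lung, was near the limit of detection. In WT LF mice it had 8.41, 14.8 and 11.0 CPM fed and 5.59, 0, 3.02 and 5.57 CPM fasted, without overlap. The mouse at 0 counts allows up to 1.203 CPM (3 counts, counting error only). In the other 3 conditions the group means were 4.55 to 7.12 CPM fed and 5.25 to 6.73 CPM fasted, and all overlapped. Averaged over conditions, the log2 fold change was -0.39 (95% interval -0.91 to 0.13, adjusted p = 0.333).

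Among the elongases, Elovl1, which makes saturated and monounsaturated very long chains for sphingolipids, was lower in fasted mice by -0.58 on the log2 scale (SE 0.12, 95% interval -0.82 to -0.33, adjusted p = 4.05e-04). WT HF mice had 33.4, 31.1, 25.9 and 22.0 CPM fed and 20.6, 15.8, 13.0 and 15.8 CPM fasted, the only condition in which the groups of Elovl1 did not overlap (2.7% of all genes were lower without overlap there). WT LF mice had 32.9, 23.8 and 28.4 CPM fed and 17.5, 17.2, 25.4 and 14.4 CPM fasted, and overlapped through a single fasted mouse. In KO LF mice the values were 30.8, 30.4, 20.6 and 34.4 CPM fed against 24.3, 18.03, 12.1 and 21.9 CPM fasted, and in KO HF mice 26.2, 18.4, 27.3 and 34.0 CPM fed against 23.2, 19.1 and 21.9 CPM fasted. The call was kept whichever of the 30 mice was left out (-0.62 to -0.54, highest adjusted p = 0.00153).

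Elovl3, an elongase of saturated and monounsaturated chains that in liver follows the day and sex hormones, was lower by -0.68 (SE 0.22, 95% interval -1.13 to -0.23, adjusted p = 0.0294). WT LF mice had 469, 498 and 435 CPM fed and 168, 175, 148 and 456 CPM fasted. Replicate 4 of the fasted mice lay within the fed range, and the other 3 far below it. KO LF mice had 490.5, 589.7, 452 and 453 CPM fed and 391, 156, 545 and 238 CPM fasted, again with 1 fasted mouse among the fed ones. HF fed mice had 148 to 404 CPM in WT and 211 to 423 CPM in KO, and HF fasted mice 139.6 to 292 CPM in WT and 93.9 to 336 CPM in KO. The call was lost without KO HF fasted replicate 2 (-0.67, adjusted p = 0.0543) or without KO HF fasted replicate 3 (-0.59, adjusted p = 0.0604).

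Elovl2 and Elovl5 extend polyunsaturated chains, Elovl2 the longer ones on the way to docosahexaenoate. Elovl2 had means of 745, 582, 588 and 557 CPM in the WT LF, KO LF, WT HF and KO HF fed groups and of 593, 513, 441 and 464 CPM in the corresponding fasted groups. Fasted means were lower in 4 of 4 conditions, with overlap in each. Its log2 fold change of -0.30 (SE 0.11, 95% interval -0.51 to -0.08) had an adjusted p of 0.0478, just under the threshold, and passed in 10 of 30 fits that each left out 1 mouse. Elovl5, the second most abundant gene of the 9, had fed means of 2267, 1774, 2109 and 1972 CPM and fasted means of 2129, 1813, 1490.1 and 1579 CPM in the same order. The log2 fold change was -0.22 (95% interval -0.68 to 0.24, adjusted p = 0.569), and -0.30 (adjusted p = 0.247) without WT HF fed replicate 2, which had 459 CPM where its group otherwise had 2355 to 2975 CPM.

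**Figure D2:**
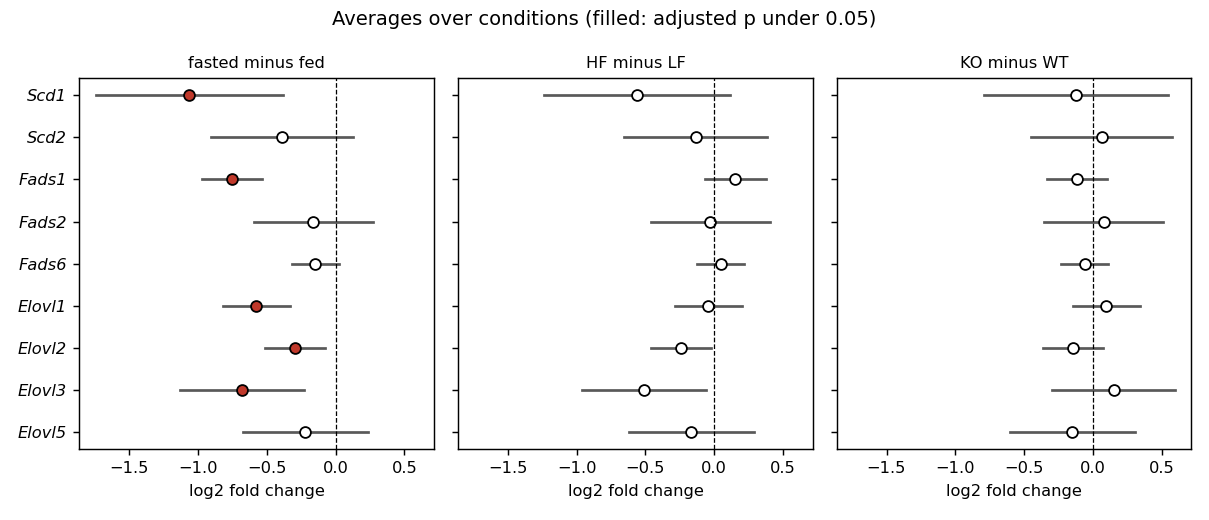
Log2 fold changes of the 9 genes (points) with 95% intervals (lines) for fasted minus fed, HF minus LF and KO minus WT, each averaged over 4 conditions by edgeR over 30 mice. Filled points have an adjusted p below 0.05: 5 genes for fasting, from -1.07 for Scd1 to -0.30 for Elovl2, and none for diet or genotype.

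The fasting effect was also estimated within each sequencing lane of the labels. Whether it differed between lanes was not tested, and the lanes hold different numbers of mice per group. The lane 7 average leaves out WT LF, the condition in which Scd1 had its largest estimate over all 30 mice (-1.95). In the 14 mice of lane 8 alone, Scd1 (-1.68, adjusted p = 1.28e-07) and Fads1 (-1.10, adjusted p = 8.35e-09) were called lower on fasting, and the estimates of Elovl1 (-0.49), Elovl2 (-0.28) and Elovl3 (-0.95) were lower without passing. In the 16 mice of lane 7, which hold no WT LF fed mouse, none of the 9 was called: Scd1 was at -0.31 (adjusted p = 0.889), Fads1 at -0.48 (0.196), Elovl1 at -0.52 (0.150), Elovl2 at -0.35 (0.397) and Elovl3 at -0.52 (0.486). Lane 7 includes WT HF fed replicate 2, and without that mouse Scd1 was at -0.49 (adjusted p = 0.557) and Fads1 was called (-0.59, adjusted p = 0.0215). With lane as a term over all 30 mice, Scd1 (-1.12, adjusted p = 0.0268), Fads1, Elovl1 and Elovl3 passed and Elovl2 did not (adjusted p = 0.0631). Leaving out the 4 libraries with pancreas or adrenal markers gave the same 4 genes, with Elovl2 at an adjusted p of 0.180.

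Within single conditions fewer of the genes passed. In WT LF mice Scd2 (-1.62, SE 0.52, adjusted p = 0.0478) and Fads1 (-0.89, SE 0.22, adjusted p = 0.00747) were lower on fasting, 2 of 9 against 3.79% of all genes. The WT LF fed mice used were all in lane 8 and WT LF fasted replicates 1 and 2 in lane 7, so fasting and lane are partly confounded there. Scd1 had the largest estimate there (-1.95, SE 0.68) with an adjusted p of 0.0891. Without WT HF fed replicate 2, which enters only through the shared spread, Scd1 passed there (adjusted p = 0.0128) and Scd2 did not (0.0516). In KO LF mice Fads1 passed (-0.60, SE 0.21, adjusted p = 0.0479), 1 of 9 against 6.53% of all genes, and in KO HF mice Fads1 again (-0.93, SE 0.23, adjusted p = 0.0446), against 0.233%. In WT HF mice none passed by edgeR, DESeq2 or limma voom, with 0.156% of all genes called lower. By edgeR 2 of the 9 had an unadjusted p below 0.05, as did 1063 of the 11566 genes tested, in either direction. Without WT HF fed replicate 2, Fads1 passed in WT HF mice as well (-0.82, SE 0.18, adjusted p = 0.0198) and Scd1 was at -1.24 (SE 0.48, adjusted p = 0.394). Over 30 fits that each dropped 1 mouse, Fads1 kept its call in 30 of 30 fits for WT LF, but in 12 of 30 for KO LF and 12 of 30 for KO HF, and Scd2 kept its call for WT LF in 11 of 30.

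**Figure D3:**
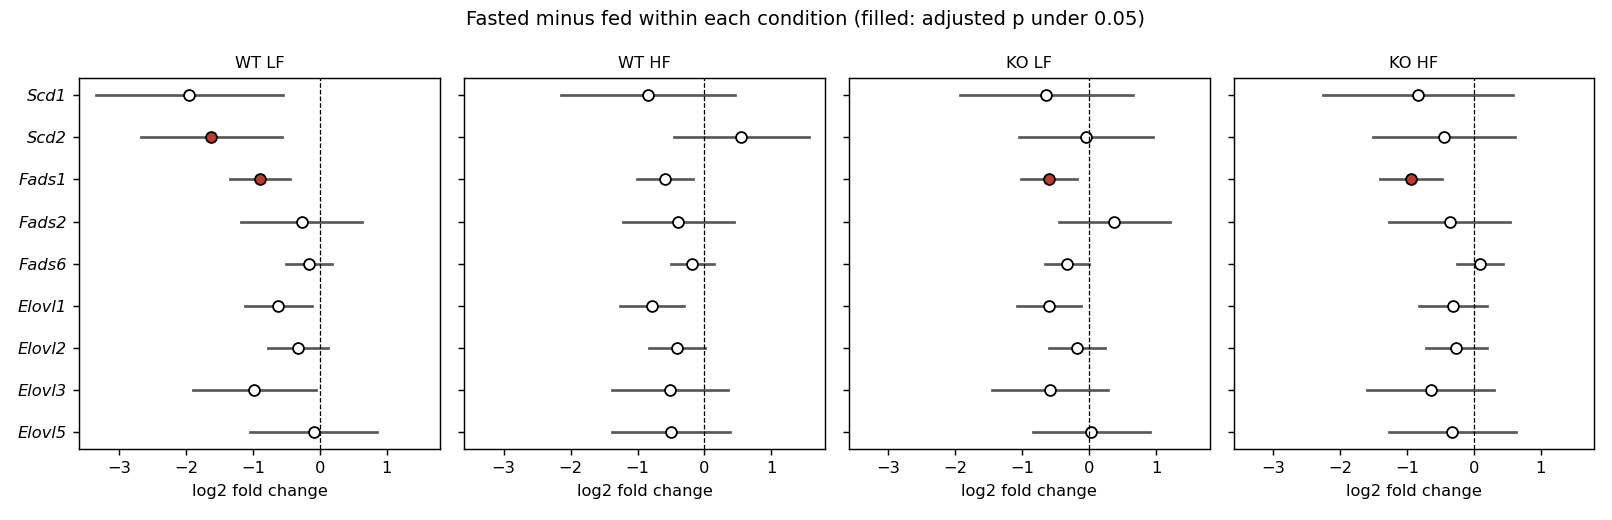
Log2 fold change on fasting of the 9 genes in each combination of genotype and diet, with 95% intervals from the edgeR model over 30 mice (filled points: adjusted p below 0.05). Fads1 is below 0 in all 4 panels and its intervals do not reach 0, and the interval of Scd1 is the widest in each panel.

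Whether the response to fasting differed between diets or genotypes was tested directly. None of the 9 passed for the difference of the fasting effect between HF and LF (2.46% of all genes passed). None of the 9 had an unadjusted p below 0.05 by edgeR (1533 of the 11566 genes tested did) or DESeq2, with 1 by limma voom. The largest estimate was that of Scd2, whose fasting effect was 0.89 higher on HF than on LF on the log2 scale (95% interval -0.14 to 1.92, adjusted p = 0.483). For Fads1 the difference was -0.01 (95% interval -0.45 to 0.42), so that a difference between diets as large as its average response lies outside the interval. Between KO and WT, the fasting effect differed by 0.66 for Scd1 (95% interval -0.68 to 1.996) and by -0.03 for Fads1 (95% interval -0.47 to 0.41), and none of the 9 passed by edgeR, DESeq2 or limma voom. In that comparison 0% of all genes passed by edgeR, with 573 at an unadjusted p below 0.05 and none of the 9 among them.

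The next question was the effect of the HF diet. Averaged over genotype and feeding state, none passed by edgeR, DESeq2 or limma voom, while 3.49% of all genes did by edgeR. Elovl3 (-0.51, SE 0.22, 95% interval -0.96 to -0.06, adjusted p = 0.236) and Elovl2 (-0.24, SE 0.11, 95% interval -0.46 to -0.03, adjusted p = 0.240) had an unadjusted p below 0.05. So did 1830 of the 11566 genes tested. Scd1 was at -0.56 (95% interval -1.24 to 0.11, adjusted p = 0.439), with 6416 ± 4165 CPM (SD, n = 15) on LF and 4275 ± 2342 CPM (SD, n = 15) on HF. Fads1 was at 0.15 (95% interval -0.06 to 0.37) in the opposite direction. In lane 8 alone, where some groups held 1 mouse, the estimate of Scd1 for HF was -0.89, and only its size is given here. In lane 7, which holds no WT LF fed mouse, it was 0.23 (95% interval -1.21 to 1.67), and none of the 9 was called in that lane. Whether the diet effect differed between lanes was not tested. The share of all genes called for diet in lane 7 is not given here.

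Within single groups, some of the 9 genes separated the diets in fed mice. In WT fed mice, every HF mouse had less Scd1 (283 to 8582 against 10468 to 15909 CPM), less Scd2 (2.98 to 6.22 against 8.41 to 14.8 CPM) and less Elovl3 (148 to 404 against 435 to 498 CPM) than every LF mouse. There 3.99% of all genes were lower without overlap. The WT LF fed mice were all in lane 8 and WT HF fed replicates 1 to 3 in lane 7, so diet and lane are largely confounded there. WT HF fed replicate 4, in lane 8, had 5909 CPM of Scd1, 5.33 CPM of Scd2 and 339 CPM of Elovl3. In KO fed mice every HF mouse had less Elovl3 (211 to 423 against 452 to 589.7 CPM) and more Fads1 (525 to 585 against 368 to 514 CPM) than every LF mouse, where 2.8% of all genes were lower and 2.95% higher without overlap. No gene of the 9 separated the diets in fasted mice. The share of all genes that did so there was not computed, so no contrast between fed and fasted mice is drawn. None of the separations in fed mice passed over all genes by edgeR. The adjusted p of Scd1, Scd2 and Elovl3 in WT fed mice was 0.989, 0.772 and 0.999, and 0.0778% of all genes were called there. In the WT fasted, KO fed and KO fasted mice 1.12%, 0.00865% and 1.68% of all genes were called for diet, with 0 of the 9 in each by edgeR, DESeq2 and limma voom. By edgeR 1, 0 and 1 of the 9 had an unadjusted p below 0.05, as did 1419, 840 and 1510 of the 11566 genes tested.

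Loss of MCAD was not seen to move any of the 9. For KO against WT averaged over diet and feeding state, 0 passed by edgeR, DESeq2 and limma voom, with 0 at an unadjusted p below 0.05 (335 of the 11566 genes tested by edgeR), where 0.00865% of all genes (Acadm) passed. The log2 differences ran from -0.15 for Elovl5 (95% interval -0.61 to 0.31) to 0.15 for Elovl3 (95% interval -0.30 to 0.60). The intervals were tightest for Fads6 (-0.23 to 0.11), Fads1 (-0.34 to 0.10) and Elovl2 (-0.36 to 0.08) and widest for Scd1 (-0.79 to 0.55). Within each of the 4 combinations of diet and feeding state, 0 of the 9 passed by any of the 3 tools, with 0 at an unadjusted p below 0.05 and 0.00865% of all genes called in each. In LF fed mice all 4 KO mice had less Scd1 (2200.4 to 9686 CPM) than the 3 WT mice (10468 to 15909 CPM). This was so for 3.58% of all genes, and the log2 difference of Scd1 was -0.93 (SE 0.67, 95% interval -2.32 to 0.45). The WT mice there were all in lane 8 and KO replicates 1 and 2 in lane 7, so genotype and lane are partly confounded there. The diet effect did not differ between genotypes at the threshold for any of the 9, with 0% of all genes called.

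Levels of some of the genes varied together among mice of the same group. Over 36 pairs, correlations were computed on log2 CPM as deviations from group means over 30 mice, and p-values by 100000 permutations within groups, adjusted over the 36 pairs. Scd1 and Fads1 were the only pair that passed by both measures (Pearson r = 0.86, adjusted permutation p = 0.00972; Spearman rho = 0.77, adjusted permutation p = 0.0130). Without the 2 mice farthest from the median r was 0.75, without WT HF fed replicate 2 it was 0.70, and within lanes 7 and 8 it was 0.90 and 0.82. Fads1 with Fads2 (r = 0.74, rho = 0.62), Elovl2 with Elovl5 (r = 0.66, rho = 0.52) and, in opposite directions, Fads6 with Elovl1 (r = -0.60, rho = -0.56) passed by Pearson (adjusted permutation p = 0.0491, 0.0415 and 0.0415) and not by Spearman (0.0732, 0.173 and 0.0732). Without WT HF fed replicate 2 their r was 0.54, 0.66 and -0.60, and in lane 8 it was 0.48, 0.55 and -0.65. Scd1 with Scd2, which lies in the same cluster, had r = 0.14 and rho = 0.09 (adjusted permutation p = 0.589 and 0.888).

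**Figure D4:**
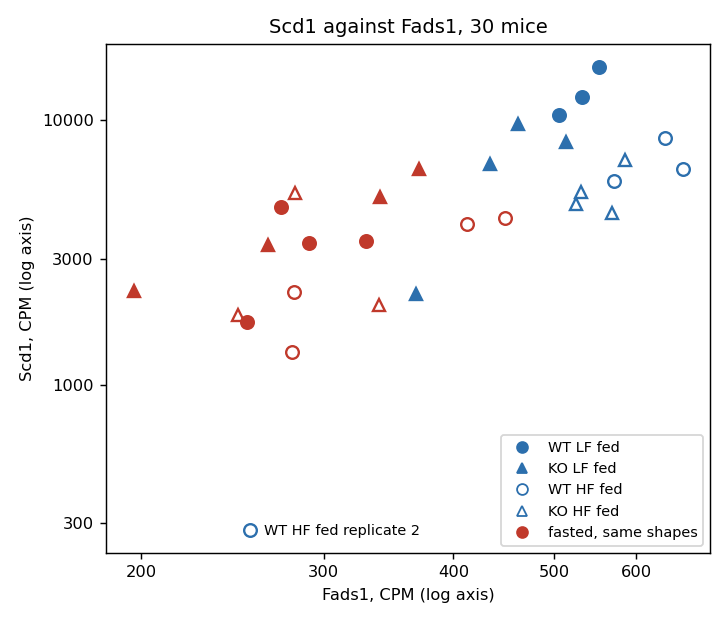
Scd1 against Fads1 level in each of the 30 mice, both in CPM on log axes (circles WT, triangles KO; filled LF, open HF; blue fed, red fasted). Mice with more Fads1 had more Scd1 within groups (r = 0.86 for deviations from group means), and WT HF fed replicate 2 lies apart at 283 CPM of Scd1 and 254 CPM of Fads1.

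Across all tested genes, the levels most like those of each gene over the 30 mice are given as a description. For Scd1 they were those of Acacb (r = 0.78), which encodes the acetyl-CoA carboxylase at the mitochondrial surface, and Nid2 (0.73), and for Fads1 those of Acat2 (0.86), an enzyme of the mevalonate pathway, Aqp8 (0.85) and Chrna4 (0.85). Elovl2 and Elovl5 shared Acsl5, a long-chain acyl-CoA synthetase (r = 0.67 and 0.72). Elovl2 was next closest to Elovl5 (0.67) and Arhgef16 (0.66), and Elovl5 to Snx9 (0.69) and Hsd17b7 (0.68). Elovl3 was nearest to Serpina1c (0.77), H13 (0.75) and C6 (0.74), Elovl1 to Lsr (0.75), Raph1 (0.71) and Copz1 (0.69), and Fads6 to Mif4gd (0.82), Sertad3 (0.79) and Ece1 (0.77). The low gene Fads2 was nearest to Pgrmc2 (0.68), Prickle1 (0.62) and Timm22 (0.61), and Scd2 to Dusp7 (0.74), Gimap9 (0.70) and Gm10320 (0.69). Of the 9, only Elovl2 had another of them among its nearest 3. These correlations run over fed and fasted mice together and carry no test.

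Genes that work with the 9 were set beside them for the average fasting effect, where 9.14% of all genes were called lower and 9.77% higher. Of the other desaturases and elongases 2 of 8 were tested. Elovl6, which lengthens palmitate to stearate and so feeds Scd1, fell by 1.82 on the log2 scale (SE 0.20, adjusted p = 3.06e-07; 190 ± 93.0 CPM fed, 52.7 ± 15.8 CPM fasted, SD, n = 15 each) and a larger estimate than that of any of the 9, and Degs1 was at 0.07 (adjusted p = 0.541). Of 9 genes that supply or complete the elongation cycle, 4 fell, among them Fasn (-3.28), Acaca (-1.45) and Acacb (-1.37), and 1 rose: Hacd3, a dehydratase of the cycle (0.95, SE 0.10, adjusted p = 3.85e-09). Of 5 genes of the cytochrome b5 and b5 reductase families, Cyb5b (-1.43, SE 0.11, adjusted p = 2.17e-12) and Cyb5r3, a cytochrome b5 reductase (-0.97, SE 0.10, adjusted p = 1.73e-09), fell. Cyb5a, the microsomal cytochrome b5, was at 0.14 (adjusted p = 0.222). The medians of these 3 lists were -0.87, -0.25 and -0.28.

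Among 15 regulators of desaturase transcription, 3 were lower and 6 higher. Srebf1, which encodes SREBP-1 (-2.40, SE 0.22, adjusted p = 1.61e-08), Insig1, its retention factor in the endoplasmic reticulum (-2.90), and Mlxipl, which encodes ChREBP (-0.96), fell, and Ppara (0.63), Rxra (0.29) and Hnf4a (0.34) were among those that rose. All 13 tested SREBP-1c and ChREBP targets fell (median -2.21), among them Acly (-2.78), Pklr (-2.36) and Fasn (-3.28). So did all 13 tested SREBP-2 targets (median -1.90), among them Stard4 (-1.90), Sc5d (-1.80) and Fdps (-3.39). The estimates of the 9 genes, of which -1.07 was the lowest, were smaller in size than the median of either list of targets. Of 16 PPAR-alpha targets 15 rose (median 1.73), with Cpt1a (1.40) and Acot1 (3.66) among the first by p. Of 10 genes of peroxisomal shortening of very long chains 8 rose (median 0.82), among them Acaa1a (1.29), Decr2 (0.81) and Ehhadh (3.05). Of 10 genes that place acyl chains into lipids, Agpat3 (0.70) and Dgat1 (0.46) rose and Cers2 (-0.51) and Dgat2 (-0.36) fell.

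LXR targets, which include genes induced together with Scd1 by oxysterols, held none that was called lower: 2 of 8 rose, Cyp7a1 (2.08) and Mylip (0.62), and the median was 0.03. Of 12 clock genes, Per1 (2.22), Tef (0.83) and Dbp (1.53) rose and Cry1 (-0.90), Npas2 (-1.22) and Arntl (-0.73) fell. On the HF diet, with 3.49% of all genes called, Acacb fell (-1.19) among the elongation genes, Cyb5a (0.28), Abcd2 (1.04), Soat2 (0.57) and Stard4 (0.82) rose, and 5 of 12 clock genes passed, with Dbp (2.33), Nr1d2 (0.59) and Tef (0.75) higher and Arntl (-0.80) lower. For the difference of the fasting effect between diets, 4 of 13 SREBP-2 targets had a smaller decrease on HF and 7 of 16 PPAR-alpha targets a smaller increase, while 0 of the 9 desaturases and elongases and 0 of 13 SREBP-1c and ChREBP targets passed. The lists share genes such as Fasn and Acaca.

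**Figure D5:**
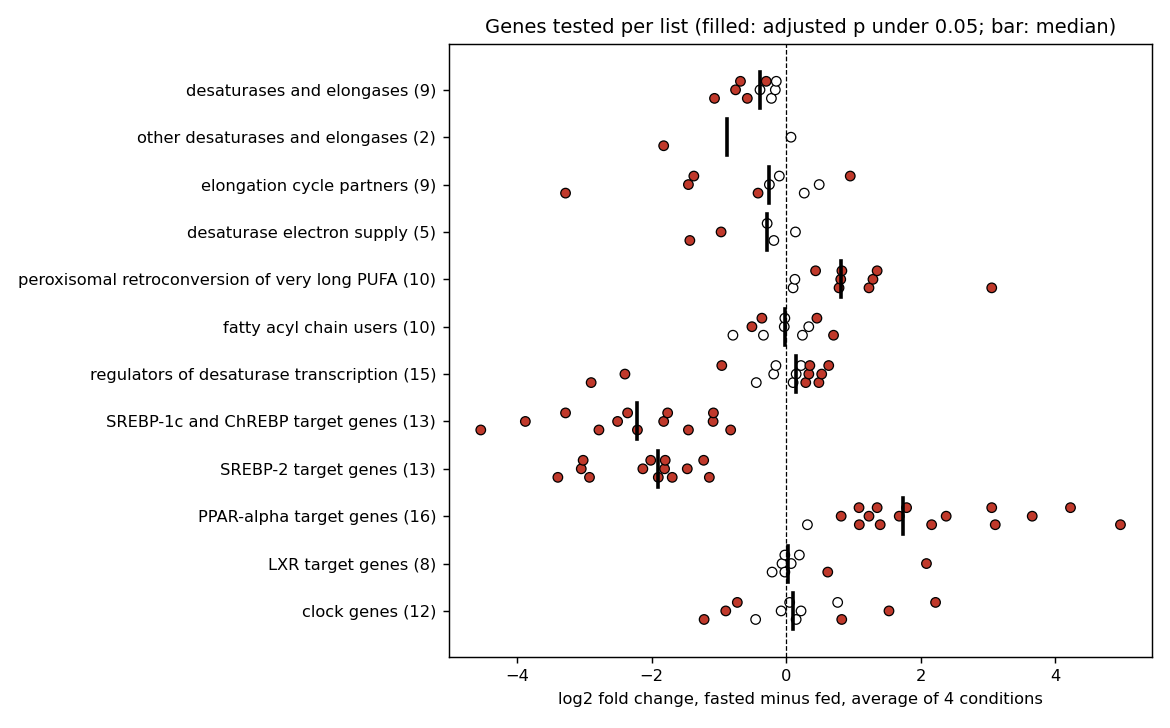
Log2 fold change on fasting, averaged over 4 conditions, of each tested gene (points; filled for adjusted p below 0.05) in the 9 desaturases and elongases and in 11 related lists, with the number tested in brackets and the list median as a bar. The 9 lie between -1.07 and -0.15 (median -0.39), the medians of the SREBP-1c and ChREBP targets (-2.21) and SREBP-2 targets (-1.90) lie further below 0, and 15 of 16 PPAR-alpha targets rose.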

How the data were processed

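Liver RNA of 32 mice was sequenced as 3′-tag QuantSeq libraries. The authors deposited 1 table of raw read counts per Ensembl gene, made per the methods and the submitters' processing notes with HISAT 0.1.5 on GRCm38, SAMtools 1.2 and HTSeq 0.6.1p1 in union mode. The annotation release differs between the methods and the table's label, and the strand setting is not given in the sources used here. All 32 columns matched 1 sample each. Groups, lanes and ages came from the labels. Of 20076 genes, 19913 had a symbol.

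Counts of 30 mice were fitted with edgeR 4.0.16 (R 4.3.3; TMM, filterByExpr by group, robust quasi-likelihood) in 1 model of 8 groups, with Benjamini-Hochberg adjustment over the 11566 genes kept and a threshold of 0.05. Average effects weighted the 4 conditions equally. The p-values set differences between group means against the spread between mice within groups, pooled over the 8 groups. Count totals of 2031053 to 4292200 set the precision, and intervals are at 95%. Alternatives were DESeq2 1.42.0, limma 3.58.1 voom, other scaling, no filter, lane, age or replicate terms, single lanes, all 32 mice and each mouse left out. A further 2 alternatives, without 4 libraries with pancreas or adrenal markers and lane 7 without WT HF fed replicate 2, were chosen after seeing the data. Mice of a group differed by more than sampling noise (chi-square per gene 4.17 to 55.6 over 42 pairs), so none were merged. The model was tested on simulated data.

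The 9 genes and all lists were chosen with earlier results of these data known. Besides the 9, the text names up to 3 genes per direction and list with the smallest p among those past the threshold for the average fasting and diet effects, and the 3 genes most correlated with each of the 9. Cyb5a and Degs1, for fasting, were named after their values were seen. Some genes that this rule picks are not reported here.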

Additional observations from a re-analysis of the deposited data

Results flagged for a closer look

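In 54 groups of 4 mice tested with Dixon's criterion over the 9 genes, 4 values stood out, where chance gives about 1 in 20 groups. Of these, 3 belong to 1 mouse, WT HF fed replicate 2. It had 283 CPM of Scd1 (the other 3 mice of the group 5909 to 8582 CPM, all fasted mice 1329 to 6530.1 CPM), 254 CPM of Fads1 (others 571 to 666 CPM) and 459 CPM of Elovl5 (others 2355 to 2975 CPM). The same mouse had 129 CPM of Fasn, within the range of fasted mice (54.8 to 257 CPM) and below the 14 other fed mice (296 to 2842 CPM), and 57.1 CPM of Elovl6 and 5.12 CPM of Acacb, both below all other fed mice. Its Srebf1 (147 CPM) lay within its group and above all fasted mice, and its Cyp4a14 (955 CPM) and Cpt1a (171 CPM) lay below all fasted mice. Its Elovl1 (31.1 CPM), Elovl3 (336 CPM) and Scd2 (3.66 CPM) lay within the group. Not flagged, but below the rest of the group, were its Fads2 (5.12 CPM, others 20.6 to 32.2 CPM), Elovl2 (441 CPM, others 536 to 753 CPM) and Fads6 (120 CPM, others 128 to 133 CPM).

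The other was Elovl3 in WT LF fasted replicate 4, at 456 CPM where the next mouse of the group had 175 CPM.

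WT LF fed replicate 2, which was left out of all comparisons, had higher levels of 4 of the 9 genes than any of the 30 mice. It had 81.7 CPM of Scd2 (259 counts; highest of the 30 mice 14.8 CPM), 742 CPM of Fads1 (666 CPM), 47.6 CPM of Fads2 (37.9 CPM) and 35.3 CPM of Elovl1 (34.4 CPM). Its Elovl3 was at 2.21 CPM (7 counts), where its group had 435 to 498 CPM.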

How the results depend on the processing

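Of 210 alternative fold changes of the 5 genes called for average fasting, 0 changed direction and 42 lost the call. The number of the 9 genes called for average fasting (5) was 3 with all 32 mice (the library with heart markers included), 0 in lane 7 alone, 2 in lane 8 alone and 1 in lane 7 alone without WT HF fed replicate 2. For average diet (0) it was 1 in lane 8 alone. For fasting in WT LF mice (2) it was 1 with all 32 mice and 1 with lane as a term. In WT HF mice (0) it was 2 in lane 8 alone. In KO LF mice (1) it was 0 with all 32 mice, in lane 7 alone, with age as a term, with only the groups compared, without the 4 libraries with pancreas or adrenal markers, and in lane 7 without WT HF fed replicate 2, and it was 2 in lane 8 alone. In KO HF mice (1) it was 0 with all 32 mice, by limma voom, in lane 7 alone, with age as a term and in lane 7 without WT HF fed replicate 2, and it was 2 in lane 8 alone. The cause was not tested. The share of all genes called under each setting is not given here, so these counts do not show whether the 9 differed from other genes. Lane 7 held no WT LF fed mouse, so interactions and WT LF contrasts could not be fitted there, and lane 8 had groups of 1 mouse, assumed to vary like the others. In the 30 fits that each dropped 1 mouse, the number called was 2 to 5 for average fasting, 1 to 3 in WT LF (3 without WT LF fasted replicate 4), 0 to 1 in WT HF, 0 to 2 in KO LF and 0 to 1 in KO HF mice, and 0 in the other comparisons. The call of Elovl2 was also lost with all 32 mice (adjusted p = 0.358), with age as a term (0.0736) and with the replicate block (0.0530). Over all genes, the calls for diet fell from 404 to 81, for fasting in WT LF mice from 872 to 414 and for the fasting effect between diets from 285 to 22 with all 32 mice.

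Same-numbered mice did not vary together (correlations of deviations -0.153 to 0.168), so the numbers do not pair the mice. With the replicate block, the number called was 4 for average fasting, 1 in WT LF and 0 in KO LF and KO HF mice. Scd2 had 0 to 44 counts per mouse, and depth limits its comparisons most.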
